A study of Mus musculus with 10 samples.

Results

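The 30 genes described here are expressed in monocytes, macrophages and their bone marrow precursors, and were taken as a list of gene symbols from the 38887 genes in the deposited table. All 30 were found by matching Ensembl identifiers to the GENCODE mouse annotation. RNA was sequenced from hematopoietic progenitor cells (HPC), isolated from the marrow of mice bearing Lewis lung carcinoma (LLC), a transplantable mouse lung tumour. In 5 libraries, called CK2i 1 to 5, the mice had been given the compound BMS-595, which inhibits the protein kinase CK2, at 60 mg/kg over 2 weeks. The mice of the other 5 libraries, vehicle 1 to 5, had received vehicle, and the sample titles call this group untreated. Both groups carried tumours, so the comparison is of inhibitor with vehicle within tumour-bearing mice. The strain, sex and age of the mice and the markers used to isolate the cells are not stated in the labels. Nor do the labels say whether replicates are different mice, and the p-values therefore rest on a spread between samples that may be partly technical.

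Monocytes arise in the bone marrow from myeloid progenitors through stages that carry the growth factor receptors Kit and then Csf1r, and leave for the blood as cells marked in the mouse by the surface protein Ly6C. In tissues they can become macrophages, cells that engulf dying cells and debris and that carry proteins such as F4/80, encoded by Adgre1, and the scavenger receptors Cd163 and Mrc1. The marrow also holds resident macrophages, which contact erythroid cells and stem cells, carry the adhesion molecule Vcam1 and make the complement protein C1q. In tumour-bearing animals, monocytes and macrophages derived from the marrow enter the tumour.

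The libraries held 34127674 to 40811539 estimated counts in the CK2i group and 37569160 to 43636152 in the vehicle group. Libraries CK2i 2 and CK2i 5 lay apart from the others, at 43.3 and 43.7 on the first principal component, while the other 8 libraries lay between -29.6 and 12.5. The counts of called genes are therefore also given without them, from the same test. Levels of 12 progenitor markers, Kit among them, were examined for the labelled cell type. All 12 were detected, with a summed level of 1242 to 1343 CPM (counts scaled by library size) in the CK2i libraries and 1194 to 1447 CPM in the vehicle libraries. Markers of mature blood cells were detected as well, so detection of the 12 does not settle the cell type. Some lists summed higher than the progenitor markers and others lower. Neutrophil markers summed to 4857 to 7905 CPM in the CK2i libraries and 2602 to 5317 CPM in the vehicle libraries. Dendritic cell markers summed to 221 to 261 CPM in the CK2i libraries and 200.5 to 230 CPM in the vehicle libraries. In bulk RNA of this kind, fewer cells of a type and less RNA per cell cannot be told apart, and neither can the opposite.

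Of the 14346 genes tested, 922 (6.43%) were higher and 970 (6.76%) were lower in CK2i libraries with edgeR's quasi-likelihood test at a Benjamini-Hochberg adjusted p under 0.05. The 30 genes leaned upward: 5 of 30 (16.7%) rose, and none fell. The list was chosen with earlier results of these data known, so this lean is a description and was not tested. The 5 were Clec12a, Emb, Ccl9, Cd68 and Adgre1. The log2 difference, CK2i minus vehicle, was above 0 for 29 of the 30, with a median of 0.47, while the median over all tested genes was 0.00. At an unadjusted p under 0.05, 13 were higher and 1, Cd36, was lower. Shares of all tested genes at that unadjusted threshold were not counted, here or below. Such counts are therefore not shown to be particular to the 30. DESeq2 called 10 higher, adding Fn1, F13a1, Lgals3, Mpeg1 and Irf5 to the same 5, and called Cd36 lower. It also called more genes in all, 1689 higher and 1435 lower of 15201.

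The upward lean was carried unevenly by the CK2i libraries. CK2i 2 and CK2i 5 were the highest libraries of all 10 for 25 of the 30 genes, whereas CK2i 3 stayed below the highest vehicle library for 27. These 2 counts were not made over all tested genes, so they are not shown to be particular to the 30. CK2i 2 and CK2i 5 also stood apart over all tested genes, at 43.3 and 43.7 on the first principal component. In 3 of 30 genes (10%), Emb, Ccl9 and Cd68, the lowest CK2i library exceeded the highest vehicle library, against 5.18% of all tested genes. Without CK2i 2 and CK2i 5, no gene of the 30 passed edgeR's test, and 0.501% of 14583 genes were called higher at the same adjusted threshold. In that fit 5 of the 30 were higher at an unadjusted p under 0.05, a threshold not counted over all tested genes. The median log2 difference was then 0.21, and 25 of 30 stayed above 0. Leaving out 1 library changed the number called to 1 without CK2i 2 and to 1 without CK2i 5, to 13 without CK2i 3, to 0 without vehicle 1 (where 13 were higher at an unadjusted p under 0.05), to 3 without vehicle 3, and to 2 without either vehicle 4 or vehicle 5. Calls over all tested genes moved in the same direction in each of these fits. With every library kept, 922 of 14346 genes were called higher. Dropping vehicle 1 left 182 of 14472, dropping CK2i 5 left 192 of 14453, and dropping CK2i 3 gave 1727 of 14459. The shifts in number called are thus not shown to be particular to the 30. With 1 surrogate variable in edgeR's fit, an estimated hidden factor that correlated with group at 0.74, none of the 30 was called. The median log2 difference was then -0.19 and 9 of 30 were above 0, so the direction of the list turned in that fit.

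**Figure D1:**
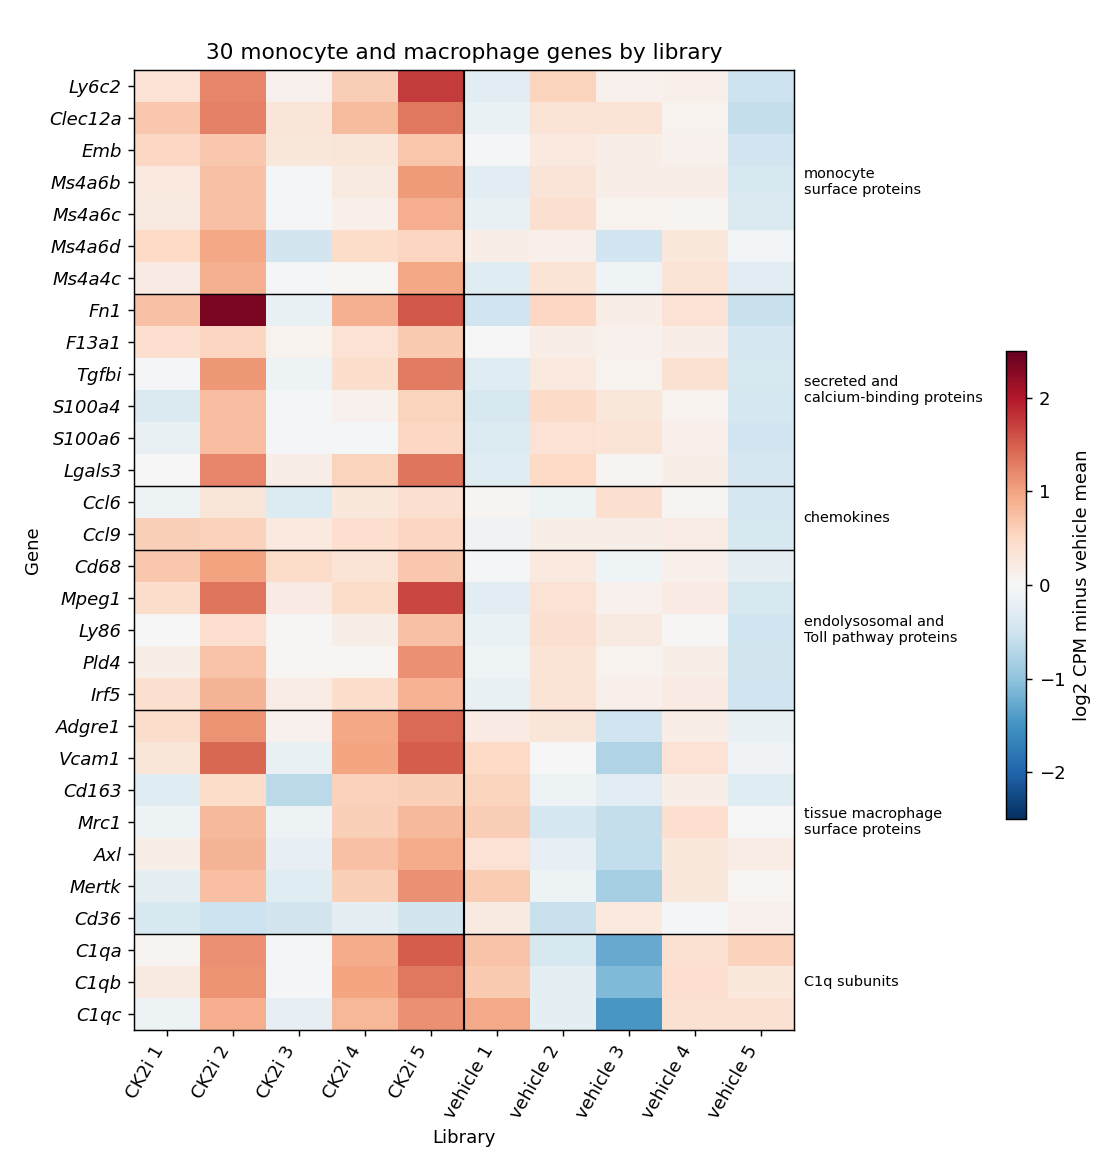
Log2 CPM of each of the 30 genes in each library, minus the gene's mean over the 5 vehicle libraries, with genes grouped by role and the CK2i libraries left of the black line. The columns CK2i 2 and CK2i 5 are red for nearly every gene except Cd36, the column CK2i 3 is pale, and vehicle 3 is blue for Vcam1, Mertk and the C1q subunits.

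Promoter sequence is shown for the 4 called genes that had an entry among RefSeq promoters of GRCm38.p6 and for Ly6c2, the most abundant of the 30. Each run is the 250 bases before the RefSeq transcript start, 5′ to 3′ on the gene's strand. Capitals mark GAGGAA and its reverse complement TTCCTC, the core of many sites of the myeloid factor PU.1, and TTGCGCAA, a palindrome that C/EBP factors bind. Both motifs were searched on both strands, and they cannot overlap each other. The windows lie at chr6:129349994-129350243 (plus strand) for Clec12a, chr13:117220323-117220572 (plus) for Emb, chr11:83578637-83578886 (minus) for Ccl9, chr11:69666171-69666420 (minus) for Cd68 and chr15:75111972-75112221 (minus) for Ly6c2.
Clec12a: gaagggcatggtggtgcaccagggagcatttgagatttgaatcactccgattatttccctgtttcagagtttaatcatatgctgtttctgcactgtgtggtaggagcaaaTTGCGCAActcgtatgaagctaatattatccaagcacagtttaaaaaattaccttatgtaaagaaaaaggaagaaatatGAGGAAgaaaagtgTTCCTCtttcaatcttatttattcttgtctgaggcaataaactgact
Emb: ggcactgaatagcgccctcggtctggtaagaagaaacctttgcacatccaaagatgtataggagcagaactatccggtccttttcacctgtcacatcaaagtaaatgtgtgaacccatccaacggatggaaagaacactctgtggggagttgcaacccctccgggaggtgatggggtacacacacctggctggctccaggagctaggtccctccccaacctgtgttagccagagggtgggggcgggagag
Ccl9: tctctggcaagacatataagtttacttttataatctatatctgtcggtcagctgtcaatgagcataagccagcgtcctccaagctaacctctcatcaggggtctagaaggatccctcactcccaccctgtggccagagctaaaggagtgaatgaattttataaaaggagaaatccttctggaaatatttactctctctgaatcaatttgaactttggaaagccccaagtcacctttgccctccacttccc
Cd68: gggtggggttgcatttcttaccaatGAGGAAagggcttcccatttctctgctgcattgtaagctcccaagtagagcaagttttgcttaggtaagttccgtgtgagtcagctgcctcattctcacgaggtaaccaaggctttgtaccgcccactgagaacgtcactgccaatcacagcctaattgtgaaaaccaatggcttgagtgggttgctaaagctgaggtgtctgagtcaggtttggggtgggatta
Ly6c2: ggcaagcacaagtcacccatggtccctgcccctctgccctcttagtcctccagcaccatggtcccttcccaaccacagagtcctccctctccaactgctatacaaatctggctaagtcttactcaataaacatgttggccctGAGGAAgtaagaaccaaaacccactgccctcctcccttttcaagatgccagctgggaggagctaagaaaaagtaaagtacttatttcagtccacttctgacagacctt

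Clec12a held all of these letters: TTGCGCAA with its first base 140 bases before the start, GAGGAA at 61 bases and TTCCTC at 47 bases. Cd68 held GAGGAA 225 bases before its start and Ly6c2 held it 108 bases before. The Emb and Ccl9 windows held neither motif. Of the 25 genes of the list with a promoter entry, 9 (36%) held GAGGAA on either strand, and 6986 of 27025 genes with an entry (25.9%) did. TTGCGCAA was found for 1 of 25 (4%), Clec12a, and for 50 of 27025 (0.185%). For these shares a gene counted if any of its promoter entries held the motif, whereas the sequences shown are the first entry of each gene. The Clec12a and Emb windows lie within the spans given below for these genes, so the RefSeq start used is not the outermost one. These are matches of letters, and no binding was measured.

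The genes spanned a wide range of transcript levels. By the deposited FPKM, which scale counts by transcript length and so allow genes to be compared, Ly6c2 averaged 493 ± 238 FPKM in CK2i libraries and 265 ± 76.2 FPKM in vehicle libraries (SD, n = 5 each) and was the highest of the 30 in all 10 libraries. Emb and F13a1 came next, at means of 125 and 116 FPKM over all libraries, and their order was not fixed, since Emb lay above F13a1 in 7 of 10 libraries. Clec12a at 73.4 FPKM and Ccl9 at 57.1 FPKM followed. The tissue macrophage genes lay lower than these: the C1q subunits averaged 4.20 to 5.98 FPKM, Adgre1 2.20 FPKM, Mrc1 1.83 FPKM and Cd163 1.38 FPKM. Vcam1 was the highest of the tissue macrophage genes, at 11.1 FPKM, above Cd68 at 9.94 FPKM. Low levels were not confined to this group, since Ms4a6d averaged 1.54 FPKM and Fn1 1.43 FPKM. Mertk, at 0.602 FPKM, was the only one of the 30 under 1 FPKM on average. Estimated counts of the 30 ran from 45 to 21508 per library, and all 30 passed the filter on low counts.

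**Figure D2:**
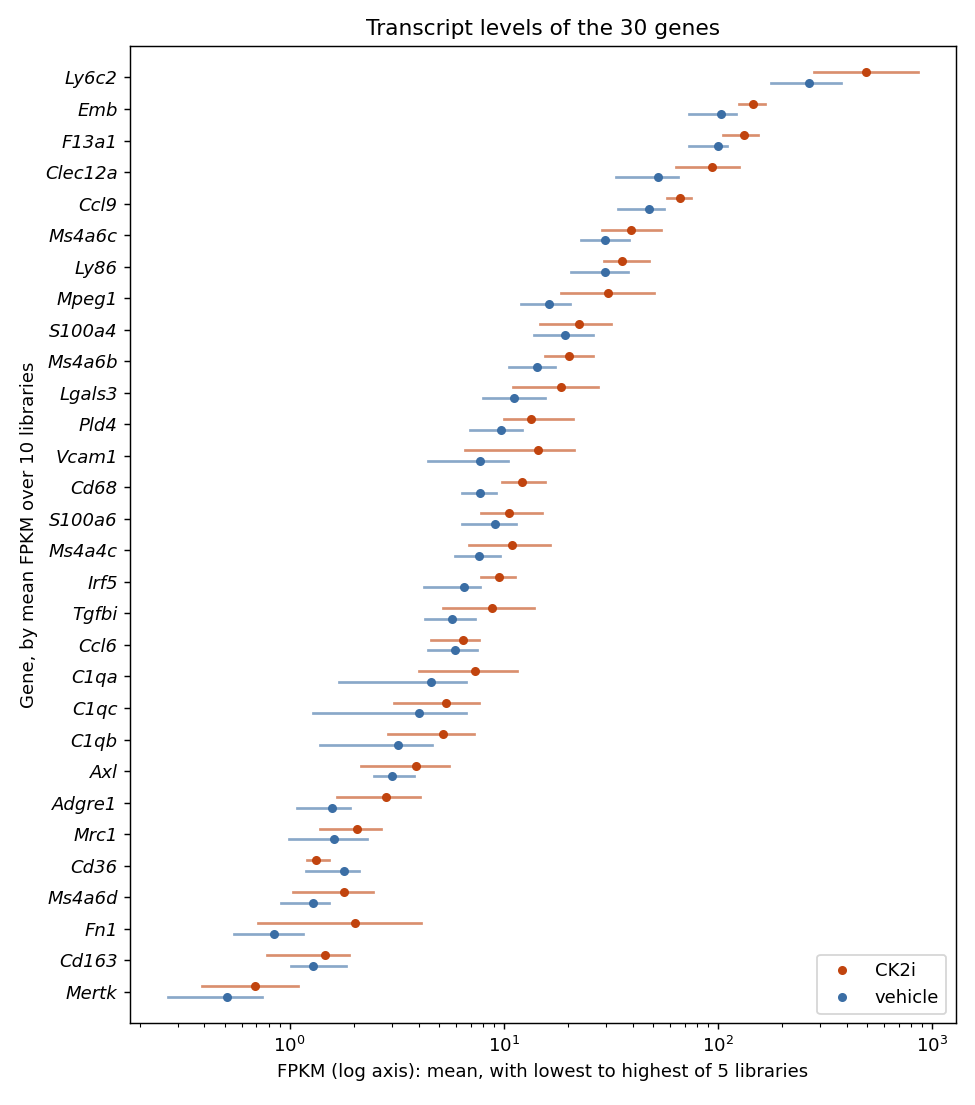
FPKM of the 30 genes on a log axis, in order of the mean over 10 libraries; points are group means and lines run from the lowest to the highest of 5 libraries, with CK2i above vehicle for each gene. Ly6c2 stands alone at the top, neighbours further down overlap widely, and the CK2i mean is the higher one for every gene except Cd36.

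Among the 7 monocyte surface proteins, Clec12a and Emb rose, and the median log2 difference of the 7 was 0.47. Ly6c2 encodes Ly6C, the surface protein by which inflammatory monocytes are sorted in the mouse. It measured 207, 377, 175, 248 and 547 CPM in CK2i libraries 1 to 5, against 135, 237, 175, 178 and 112 CPM in vehicle libraries 1 to 5. CK2i 2, 4 and 5 lay above every vehicle library, CK2i 1 lay below vehicle 2, and CK2i 3 was level with vehicle 3. The means were 311 ± 153 CPM and 167 ± 47.7 CPM (CK2i and vehicle, SD, n = 5 each), a 1.86-fold ratio. The log2 difference of 0.89 ± 0.31 (SE) did not pass edgeR's test (adjusted p = 0.0705). Of the 75-base windows of its transcripts, 9.46% also occur in the neighbouring gene Ly6c1, so part of its reads were assigned between the copies by the authors' model.

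Clec12a, an inhibitory C-type lectin receptor of myeloid cells and their progenitors (ENSMUSG00000053063, chr6:129342691-129365303, GRCm38), measured 146, 219, 113, 158 and 228 CPM in CK2i libraries 1 to 5, against 81.8, 116, 116, 97.4 and 60.7 CPM in vehicle libraries 1 to 5. CK2i 3 fell within the vehicle range and the other 4 CK2i libraries lay above it. The means of 173 ± 49.1 CPM in CK2i and 94.4 ± 23.7 CPM in vehicle libraries (SD, n = 5 each) differed by 1.83-fold, with a log2 difference of 0.87 ± 0.22 (SE, adjusted p = 0.0322 by edgeR). This call was kept in 5 of 10 leave-one-out fits, which each omit 1 library, and was lost without CK2i 2, CK2i 5, vehicle 1, vehicle 4 or vehicle 5, with adjusted p from 0.0137 to 0.0777.

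Emb, or embigin, a cell adhesion protein of the immunoglobulin superfamily (ENSMUSG00000021728, chr13:117208536-117274415), measured 305, 341, 260, 265 and 348 CPM in CK2i libraries 1 to 5, against 207, 253, 240, 231 and 154 CPM in vehicle libraries 1 to 5. The groups did not overlap, although CK2i 3 and CK2i 4 exceeded vehicle 2 by a narrow margin. The mean was 304 ± 41.2 CPM in CK2i and 217 ± 39.2 CPM in vehicle libraries (SD, n = 5 each), a 1.4-fold ratio. The log2 difference was 0.48 ± 0.13 (SE, adjusted p = 0.0398 by edgeR). It passed in 3 of 10 leave-one-out fits, those without CK2i 3, CK2i 4 or vehicle 2, with adjusted p from 0.0245 to 0.0938.

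**Figure D3:**
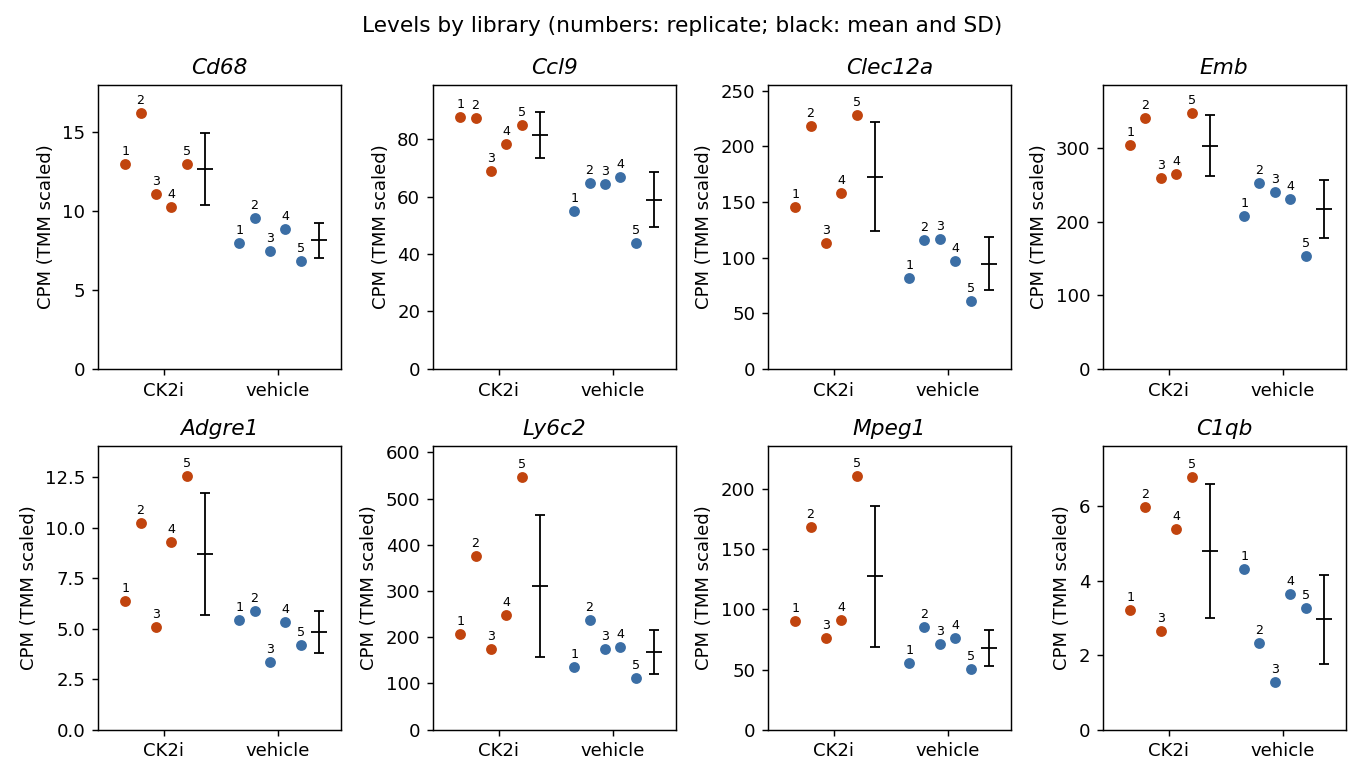
CPM in each library for the 5 genes that rose (Cd68, Ccl9, Clec12a, Emb and Adgre1) and for Ly6c2, Mpeg1 and C1qb, with CK2i on the left of each panel; numbers are replicates and the black marks are the mean and SD of 5 libraries. The groups are separate for Cd68, Ccl9 and Emb, and for Ly6c2 and Mpeg1 the libraries CK2i 2 and CK2i 5 stand far above the other 3.

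The remaining 4 surface genes belong to the Ms4a family of small membrane proteins that span the membrane several times, and they lie together on chromosome 19 at 11404770 to 11604849. None of the 4 passed edgeR's test. Ms4a6c, the most abundant of them at 34.6 FPKM over all libraries, measured 57.1, 81.3, 47.8, 53.5 and 91.8 CPM in CK2i libraries 1 to 5, against 42.9, 64.7, 52.0, 51.1 and 38.4 CPM in vehicle libraries 1 to 5. Ms4a6b measured 20.9, 29.4, 17, 20.6 and 36.7 CPM in CK2i libraries and 14.4, 22.0, 19.8, 19.8 and 13.6 CPM in vehicle libraries. For both genes CK2i 2 and CK2i 5 lay above every vehicle library and the other 3 CK2i libraries lay within the vehicle range. The log2 difference was 0.41 ± 0.19 for Ms4a6c (SE, adjusted p = 0.155 by edgeR) and 0.47 ± 0.21 for Ms4a6b (adjusted p = 0.139).

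Ms4a6d was far less abundant, at 1.54 FPKM over all libraries. It measured 2.26, 3.10, 1.16, 2.19 and 2.30 CPM in CK2i libraries 1 to 5, against 1.78, 1.73, 1.15, 1.90 and 1.52 CPM in vehicle libraries 1 to 5. Here 4 of 5 CK2i libraries lay above all vehicle libraries and CK2i 3 was level with the lowest vehicle library. Its log2 difference was 0.45 ± 0.24 (SE, adjusted p = 0.204 by edgeR). Ms4a4c averaged 6.99 ± 2.37 CPM in CK2i and 5.11 ± 1.14 CPM in vehicle libraries (SD, n = 5 each), a log2 difference of 0.45 ± 0.23 (SE, adjusted p = 0.184). Shared 75-base windows made up 0.408% to 3.78% of the transcript windows of these 4 genes, so their values are little exposed to the splitting of reads between copies.

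The 6 secreted and calcium-binding proteins had a median log2 difference of 0.51. None passed edgeR's test, 3 were higher at an unadjusted p under 0.05, and DESeq2 called the same number higher. Fn1 encodes fibronectin, a matrix protein that monocytes and macrophages make as well as stromal cells. It measured 11, 33.8, 5.79, 12.2 and 19.4 CPM in CK2i libraries 1 to 5, against 4.69, 9.45, 7.42, 8.49 and 4.45 CPM in vehicle libraries 1 to 5. CK2i 3 lay within the vehicle range, the other 4 above it, and CK2i 2 stood highest. Its log2 difference of 1.25 ± 0.41 (SE, adjusted p = 0.064 by edgeR) was the largest of the 30 but had a wide error. F13a1, the catalytic subunit of the clotting factor that crosslinks fibrin, is made by monocytes, macrophages and megakaryocytes. It measured 491, 530, 388, 475 and 577 CPM in CK2i libraries 1 to 5, against 364, 412, 396, 412 and 274 CPM in vehicle libraries 1 to 5. All CK2i libraries but CK2i 3 lay above the vehicle range, with means of 492 ± 70.3 CPM in CK2i and 371 ± 58 CPM in vehicle libraries (SD, n = 5 each). On the log2 scale the difference was 0.41 ± 0.12 (SE, adjusted p = 0.0529 by edgeR).

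Lgals3, the sugar-binding protein galectin-3, averaged 15.7 ± 6.48 CPM in CK2i and 9.56 ± 2.49 CPM in vehicle libraries, a log2 difference of 0.72 ± 0.27 (SE, adjusted p = 0.0931 by edgeR). Tgfbi, a matrix protein induced by transforming growth factor beta, averaged 22.1 ± 9.83 CPM in CK2i and 14.5 ± 3.35 CPM in vehicle libraries, a log2 difference of 0.61 ± 0.28 (SE, adjusted p = 0.149). In both genes CK2i 2 and CK2i 5 were high and the other CK2i libraries mostly lay among the vehicle libraries. The calcium-binding proteins S100a4 and S100a6, neighbours on chromosome 3, had small differences. S100a4 averaged 7.5 ± 2.36 CPM in CK2i and 6.45 ± 1.8 CPM in vehicle libraries, and S100a6 averaged 5.87 ± 1.76 CPM in CK2i and 5.05 ± 1.30 CPM in vehicle libraries (SD, n = 5 each). Each had a log2 difference of 0.22, with an SE of 0.24 for S100a4 and 0.23 for S100a6 (adjusted p = 0.541 and 0.519 by edgeR), and both differences were below 0 without CK2i 2 and CK2i 5. S100a4 shares 44.8% of its 75-base windows with the gene model Gm42674, so its level is uncertain.

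The CC chemokines Ccl6 and Ccl9, which attract myeloid cells, lie 20.2 kb end to end on chromosome 11, and only Ccl9 rose. Ccl9 (ENSMUSG00000019122, chr11:83572919-83578636) measured 87.7, 87.2, 69.0, 78.2 and 84.8 CPM in CK2i libraries 1 to 5, against 55.0, 64.7, 64.4, 66.7 and 44 CPM in vehicle libraries 1 to 5. The groups did not overlap, and CK2i 1 was as high as CK2i 2 and CK2i 5. The mean was 81.4 ± 7.92 CPM in CK2i and 59.0 ± 9.53 CPM in vehicle libraries (SD, n = 5 each), a 1.38-fold ratio, with a log2 difference of 0.46 ± 0.11 (SE, adjusted p = 0.0283 by edgeR). The call was kept in 7 of 10 leave-one-out fits and was lost without CK2i 2, CK2i 5 or vehicle 1, with adjusted p from 0.0154 to 0.0694. Ccl6 averaged 6.93 ± 1.46 CPM in CK2i and 6.45 ± 1.34 CPM in vehicle libraries, a log2 difference of 0.10 ± 0.18 (SE, adjusted p = 0.704). The difference between the changes of these neighbours was not tested.

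Of the 5 endolysosomal and Toll pathway proteins, Cd68 rose, all 5 had a log2 difference above 0, and the median was 0.54. Cd68, or macrosialin, is a heavily glycosylated protein of macrophage endosomes and lysosomes (ENSMUSG00000018774, chr11:69664213-69666153). It measured 13, 16.2, 11.1, 10.3 and 13 CPM in CK2i libraries 1 to 5, against 7.96, 9.55, 7.5, 8.88 and 6.82 CPM in vehicle libraries 1 to 5. The groups did not overlap, and CK2i 3 was not the lowest of them, unlike for most of the 30 genes. The mean was 12.7 ± 2.28 CPM in CK2i and 8.14 ± 1.09 CPM in vehicle libraries (SD, n = 5 each), a 1.56-fold ratio. The log2 difference of 0.64 ± 0.13 (SE) had the smallest adjusted p of the 30, 0.0191 by edgeR. Cd68 passed in 9 of 10 leave-one-out fits, the exception being the fit without vehicle 1, with adjusted p from 0.0133 to 0.0505. Without CK2i 2 and CK2i 5 its adjusted p was 0.0856.

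Mpeg1 encodes perforin-2, a pore-forming protein of macrophage endosomes. It measured 90.5, 168, 76.6, 90.8 and 211 CPM in CK2i libraries 1 to 5, against 55.0, 85.5, 71.6, 76.5 and 50.3 CPM in vehicle libraries 1 to 5. CK2i 3 lay within the vehicle range, and CK2i 1 and CK2i 4 only slightly above it. With means of 127 ± 58.9 CPM in CK2i and 67.8 ± 14.8 CPM in vehicle libraries (SD, n = 5 each), the 1.88-fold ratio had a log2 difference of 0.91 ± 0.28 (SE, adjusted p = 0.0533 by edgeR). Irf5, a transcription factor activated downstream of Toll-like receptors, averaged 18.4 ± 3.83 CPM in CK2i and 12.6 ± 2.80 CPM in vehicle libraries, a log2 difference of 0.54 ± 0.18 (SE, adjusted p = 0.0603). Irf5 overlaps Tnpo3, a gene on the opposite strand at 169 CPM, and the labels do not state the strand setting of the counting, so reads of Tnpo3 may be among those of Irf5. Pld4, an endosomal nuclease, averaged 24.4 ± 9 CPM in CK2i and 17.6 ± 3.53 CPM in vehicle libraries (log2 difference 0.47 ± 0.23, adjusted p = 0.169). Ly86, or MD-1, the partner of the Toll-like receptor homologue RP105, averaged 29.5 ± 6.71 CPM in CK2i and 24.6 ± 5.63 CPM in vehicle libraries (log2 difference 0.26 ± 0.18, adjusted p = 0.32).

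**Figure D4:**
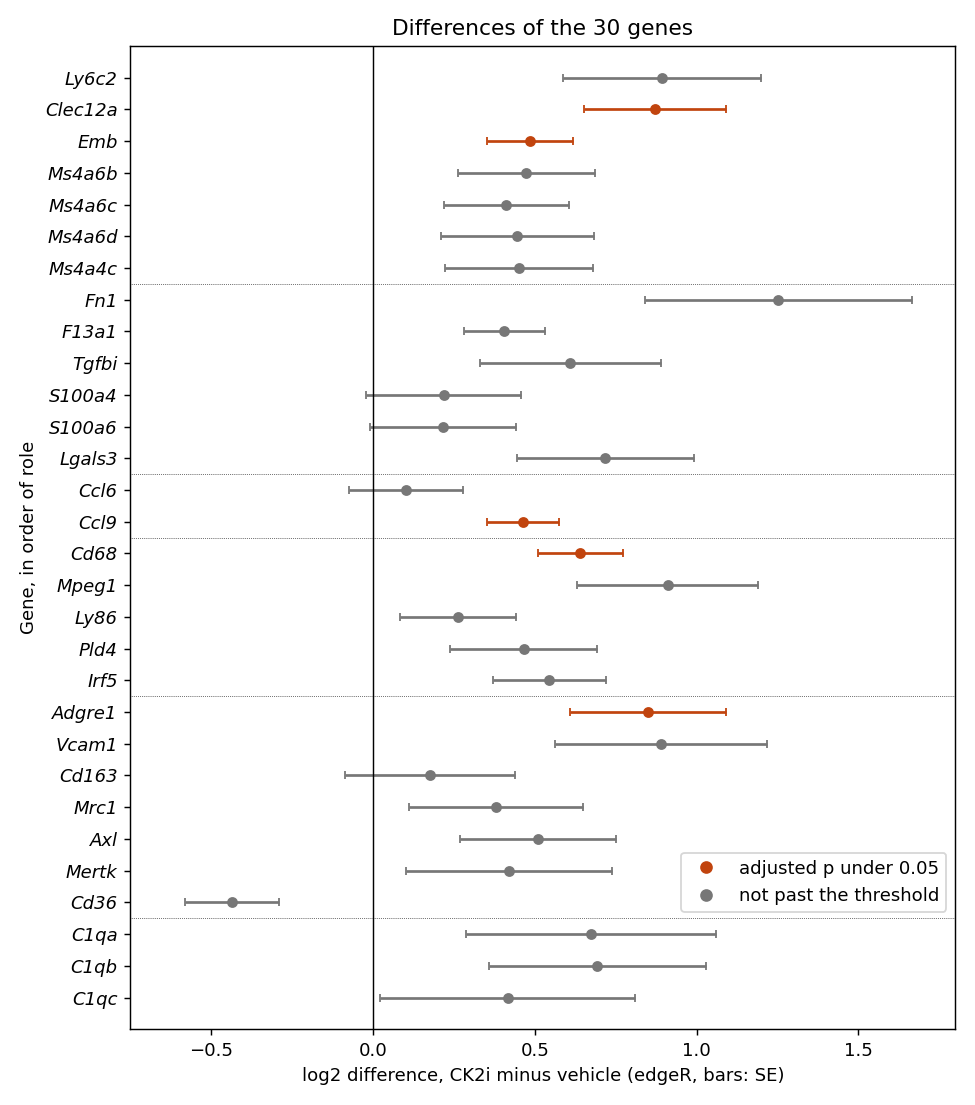
Log2 difference, CK2i minus vehicle, of the 30 genes in order of role, with bars for the SE derived from edgeR's test. The 5 genes in orange, Clec12a, Emb, Ccl9, Cd68 and Adgre1, passed the test, Cd36 is the only gene left of 0, and several genes with larger differences, such as Fn1 at 1.25, have SEs too wide to pass.

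Among the 7 surface proteins of tissue macrophages, Adgre1 rose, 6 had a log2 difference above 0, and the median was 0.42. Adgre1 (ENSMUSG00000004730, chr17:57358691-57483527) measured 6.37, 10.3, 5.06, 9.27 and 12.6 CPM in CK2i libraries 1 to 5, against 5.43, 5.86, 3.34, 5.32 and 4.17 CPM in vehicle libraries 1 to 5. CK2i 3 lay within the vehicle range and the other 4 above it. The means of 8.70 ± 3.01 CPM in CK2i and 4.82 ± 1.04 CPM in vehicle libraries (SD, n = 5 each) differed by 1.8-fold, with a log2 difference of 0.85 ± 0.24 (SE, adjusted p = 0.0436 by edgeR). It passed in 3 of 10 leave-one-out fits, those without CK2i 1, CK2i 3 or vehicle 2, with adjusted p from 0.0152 to 0.101.

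Vcam1, an adhesion molecule of marrow macrophages that stromal and endothelial cells also carry, measured 29.8, 65.4, 21.2, 48.1 and 69.2 CPM in CK2i libraries 1 to 5, against 34, 23.9, 14.2, 31 and 22.8 CPM in vehicle libraries 1 to 5. CK2i 2, 4 and 5 lay above all vehicle libraries, while CK2i 1 and CK2i 3 lay within the vehicle range. The log2 difference was 0.89 ± 0.33 (SE, adjusted p = 0.0855 by edgeR). Axl and Mertk are receptor tyrosine kinases by which macrophages recognise dying cells. Axl averaged 13.8 ± 4.29 CPM in CK2i and 9.71 ± 2.49 CPM in vehicle libraries (log2 difference 0.51 ± 0.24, adjusted p = 0.157), and Mertk averaged 2.80 ± 1.16 CPM in CK2i and 2.09 ± 0.719 CPM in vehicle libraries (0.42 ± 0.32, adjusted p = 0.37). Their ligands and the third receptor of the family, which were on the list of other macrophage genes, had log2 differences of 0.04 ± 0.30 for Gas6, -0.07 ± 0.13 for Pros1 and -0.10 ± 0.29 for Tyro3 (SE), none past the test.

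Mrc1, the mannose receptor, averaged 10.6 ± 3.30 CPM in CK2i and 8.15 ± 2.88 CPM in vehicle libraries (log2 difference 0.38 ± 0.27, SE, adjusted p = 0.338 by edgeR). Cd163, the receptor for haptoglobin-bound hemoglobin, averaged 6.24 ± 2.22 CPM in CK2i and 5.52 ± 1.49 CPM in vehicle libraries (0.18 ± 0.26, adjusted p = 0.661). Cd36, a scavenger and fatty acid receptor that platelets carry too, was the one gene of the 30 with a difference below 0. It measured 4.41, 3.92, 4.15, 4.89 and 4.13 CPM in CK2i libraries 1 to 5, against 6.68, 3.89, 6.80, 5.59 and 6.13 CPM in vehicle libraries 1 to 5. All vehicle libraries but vehicle 2 lay above the CK2i libraries. Its log2 difference was -0.44 ± 0.15 (SE, adjusted p = 0.0661 by edgeR), and Cd36 was called lower when vehicle 2 was left out. Markers of megakaryocytes and platelets were lower alongside it: of 12, 5 fell, as did 6.76% of all tested genes. Tubb1, a platelet tubulin, led the 5 at a log2 difference of -0.88 ± 0.23 (SE, adjusted p = 0.0347 by edgeR). The summed level of the 12 was 2255 to 4701 CPM in CK2i libraries and 3761 to 5834 CPM in vehicle libraries. The part of these cells in the value of Cd36, and in that of F13a1, was not tested.

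The 3 subunits of C1q, the recognition protein of the classical complement pathway, are encoded within 18.7 kb on chromosome 4, at 136880129 to 136898803, and had a median log2 difference of 0.67. C1qa measured 3.79, 7.89, 3.50, 6.81 and 10.2 CPM in CK2i libraries 1 to 5, against 5.87, 2.74, 1.49, 4.66 and 5.35 CPM in vehicle libraries 1 to 5. C1qb measured 3.20, 5.96, 2.64, 5.39 and 6.78 CPM in CK2i libraries and 4.30, 2.32, 1.27, 3.63 and 3.27 CPM in vehicle libraries. C1qc measured 3.33, 6.85, 3.17, 6.47 and 8.02 CPM in CK2i libraries and 6.96, 3.11, 1.32, 4.71 and 4.71 CPM in vehicle libraries. In each subunit CK2i 2, 4 and 5 were high, CK2i 1 and CK2i 3 were low, vehicle 1 was the highest vehicle library and vehicle 3 the lowest of all libraries. The log2 difference was 0.67 ± 0.39 for C1qa, 0.69 ± 0.34 for C1qb and 0.42 ± 0.39 for C1qc (SE, adjusted p = 0.235, 0.167 and 0.474 by edgeR). None was called or had an unadjusted p under 0.05, nor did DESeq2 call any.

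While the level of C1q ranged from 4.37 to 26.6 FPKM between libraries, its makeup varied less. The FPKM of the 3 subunits summed to 11.1, 21.96, 10, 20.1 and 26.6 FPKM in CK2i libraries 1 to 5, against 17.96, 8.68, 4.37, 13.8 and 14.2 FPKM in vehicle libraries 1 to 5. C1qa made up 39.2% to 43.6% of the sum in CK2i libraries and 36.2% to 43.0% in vehicle libraries. C1qb ranged from 24.9% to 31.6% over all libraries. C1qc made up 28.9% to 31.5% in CK2i libraries and 29.3% to 37.1% in vehicle libraries, and this difference in share was not tested.

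The libraries did not rank in the same order for the monocyte genes and for the macrophage genes. The list was divided, after its values had been seen, into the 10 tissue macrophage surface and C1q genes and the other 20. Among vehicle libraries, vehicle 1 was the highest for 8 of the 10 macrophage genes and vehicle 3 the lowest for 8, whereas for the other 20 genes vehicle 2 was the highest for 13 and vehicle 5 the lowest for 18. The median log2 CPM of the 10 macrophage genes, each relative to its vehicle mean, was -0.02, 0.89, -0.19, 0.78 and 1.14 in CK2i libraries 1 to 5, against 0.59, -0.21, -0.69, 0.32 and 0.08 in vehicle libraries 1 to 5. For the other 20 genes the medians were 0.30, 0.81, 0.04, 0.36 and 0.89 in CK2i libraries, against -0.19, 0.34, 0.12, 0.14 and -0.43 in vehicle libraries. CK2i 2 and CK2i 5 were high for both groups of genes, and CK2i 3 lay among the vehicle libraries for both. CK2i 4 was above every vehicle library for 6 of the 10 macrophage genes and 12 of the other 20, and CK2i 1 for 1 of the 10 and 9 of the other 20. Counts of this kind were not made over all tested genes.

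**Figure D5:**
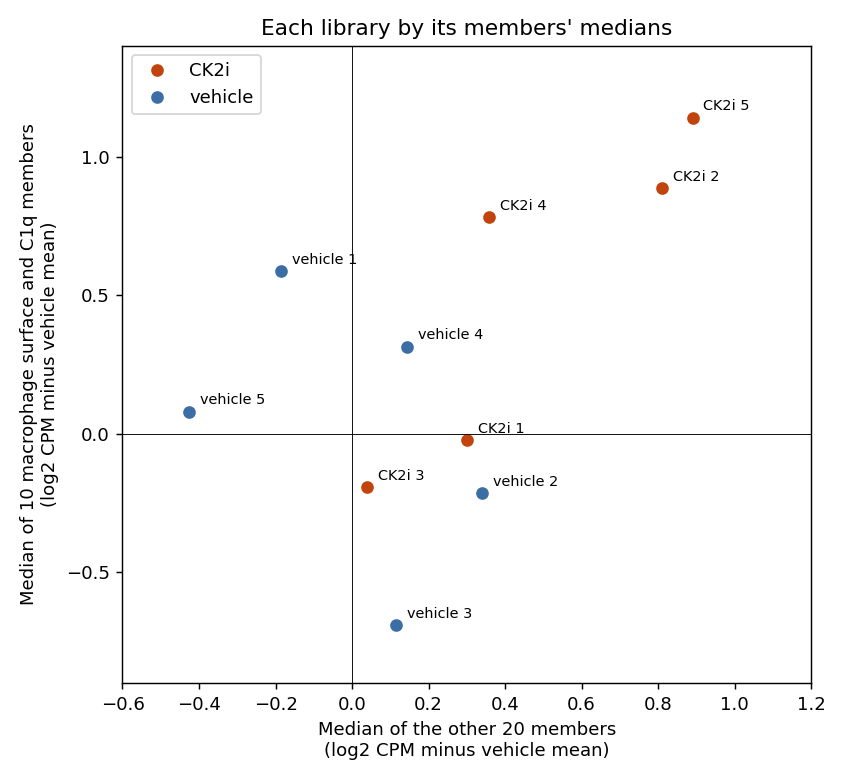
Each library placed by the median log2 CPM, relative to the vehicle mean, of 20 monocyte, secreted, chemokine and endolysosomal genes (horizontal) and of 10 tissue macrophage surface and C1q genes (vertical). CK2i 5 and CK2i 2 lie at the upper right, CK2i 4 is near them on the vertical axis and near vehicle 2 on the horizontal one, CK2i 1 and CK2i 3 lie among the vehicle libraries, and the vehicle libraries spread from 0.59 to -0.69 on the vertical axis.

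Other genes of these cell types were taken from separate lists, and the difference between the lists was not tested. With every library kept, 6.43% of all tested genes were called higher and 6.76% lower. Of 34 further monocyte genes tested, 11 rose and 1 fell, with a median log2 difference of 0.41 and a summed level of 3031 to 4389 CPM in CK2i libraries and 2320 to 3211 CPM in vehicle libraries. Cd14, the lipopolysaccharide co-receptor, rose most, averaging 6.39 ± 1.16 CPM in CK2i and 2.87 ± 0.733 CPM in vehicle libraries (SD, n = 5 each), a log2 difference of 1.15 ± 0.19 (SE, adjusted p = 0.0104 by edgeR) that was kept in all 10 leave-one-out fits. Itgam, the integrin chain CD11b of myeloid cells, averaged 21.4 ± 6.65 CPM in CK2i and 11.8 ± 2.88 CPM in vehicle libraries and rose by a log2 difference of 0.86 ± 0.23 (SE, adjusted p = 0.0364). Csf1r, the growth factor receptor of the lineage, averaged 102 ± 20.4 CPM in CK2i and 73.8 ± 14.0 CPM in vehicle libraries (SD, n = 5 each), and its log2 difference of 0.47 ± 0.15 did not pass (adjusted p = 0.0629). S100a10, an annexin partner in the same protein family as S100a4 and S100a6, was the gene that fell, by 0.29 on the log2 scale (SE 0.07, adjusted p = 0.0259). Without CK2i 2 and CK2i 5, none of the 34 was called higher or lower and 12 were higher at an unadjusted p under 0.05. Without vehicle 1, 3 of the 34 were called higher, and without CK2i 3, 17 were. Over all tested genes, 182 of 14472 were called higher without vehicle 1 and 1727 of 14459 without CK2i 3. These shifts are thus not shown to be particular to the 34.

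Of 20 further tissue macrophage genes tested, 2 rose and 3 fell, with a median log2 difference of -0.02, and their summed level was 313 to 341 CPM in CK2i libraries and 333 to 389 CPM in vehicle libraries. Trem2, a lipid-sensing receptor of macrophages, averaged 2.62 ± 0.581 CPM in CK2i and 1.64 ± 0.363 CPM in vehicle libraries (log2 difference 0.67 ± 0.19, SE, adjusted p = 0.0452 by edgeR), and the integrin chain Itgav was the other gene that rose. Lyve1, a hyaluronan receptor of lymphatic vessels and of some resident macrophages, averaged 0.540 ± 0.125 CPM in CK2i and 1.33 ± 0.191 CPM in vehicle libraries, a log2 difference of -1.30 ± 0.19 (SE, adjusted p = 0.00633). The other genes that fell were Apoe, a lipid carrier that macrophages secrete, at a log2 difference of -0.71 ± 0.08 (SE, adjusted p = 0.00241), and Stab2, a hyaluronan receptor of sinusoidal endothelium. Unlike the 5 genes of the main list that rose, Lyve1 and Apoe passed in all 10 leave-one-out fits and without CK2i 2 and CK2i 5 (adjusted p = 0.0407 for Lyve1 and 0.0229 for Apoe). Neither Trem2 nor Itgav passed without CK2i 2 and CK2i 5 or without vehicle 1, and Stab2 did not pass without CK2i 2 and CK2i 5.

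Markers of other cell types differed between the groups too, beside shares over all tested genes of 6.43% called higher and 6.76% called lower. Of 15 neutrophil and granule markers, 7 rose, with a median log2 difference of 0.68 and a summed level of 4857 to 7905 CPM in CK2i libraries and 2602 to 5317 CPM in vehicle libraries. The largest rise was of S100a8, a neutrophil and monocyte calcium-binding protein, at 1.65 ± 0.46 (SE, adjusted p = 0.0404 by edgeR). Of 12 eosinophil, basophil and mast cell markers, 1, Hdc, rose. Their summed level was 1132, 1996, 1022, 2188 and 2815 CPM in CK2i libraries 1 to 5, against 1657, 1636, 1389, 1265 and 1000.5 CPM in vehicle libraries 1 to 5, so CK2i 2, 4 and 5 were high in this sum. The genes of the list were divided: the median log2 difference was -0.09, with 4 higher and 4 lower at an unadjusted p under 0.05. Their median log2 CPM, relative to vehicle means, was 0.13, 0.07 and 0.32 in CK2i 2, 4 and 5, and 0.28 in vehicle 3. Of 12 progenitor markers, 1 fell, Kit, at a log2 difference of -0.26 ± 0.06 (SE, adjusted p = 0.0302). Without CK2i 2 and CK2i 5, edgeR called none of the neutrophil markers, 7 being higher at an unadjusted p under 0.05, and none of the platelet markers, and without vehicle 1 it called none of either list. The calls of Hdc and Kit were also lost without CK2i 2 and CK2i 5 and without vehicle 1. Without CK2i 3 the eosinophil, basophil and mast cell markers had 4 called higher and 1 called lower. In that fit 1727 of all 14459 tested genes were called higher and 1471 lower.

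Of 12 stromal and endothelial markers tested, which bear on Vcam1, Fn1 and Axl, none passed edgeR's test in either direction, 3 were lower and 0 higher at an unadjusted p under 0.05, and DESeq2 called 3 lower. Their median log2 difference was -0.49, and they summed to 71.6 to 139 CPM in CK2i libraries and 86.3 to 161 CPM in vehicle libraries. Of 11 dendritic cell markers, 1, Ccr9, fell, with summed levels of 221 to 261 CPM in CK2i libraries and 200.5 to 230 CPM in vehicle libraries and a median log2 difference of -0.02. Of 12 erythroid markers, 6 rose and 3 fell (2 and 1 without CK2i 2 and CK2i 5), with summed levels of 2136 to 2723 CPM in CK2i libraries and 2614 to 3404 CPM in vehicle libraries. The median log2 difference of the erythroid markers was 0.65 (0.61 without CK2i 2 and CK2i 5), above 0 although the sums ran lower. The largest rise was of Slc4a1, the anion exchanger of red cells, at a log2 difference of 1.68 ± 0.29 (SE, adjusted p = 0.0127 by edgeR), and the largest fall was of the carbonic anhydrase Car1, at -0.77 ± 0.16 (adjusted p = 0.0205). One gene fell in each of the lymphoid lists, Jchain among 7 B and plasma cell markers and Gzmb among 7 T and NK cell markers. The B and plasma cell list summed to 430 to 639 CPM in CK2i libraries and 667 to 868 CPM in vehicle libraries, and the T and NK cell list to 45.6 to 82.4 CPM in CK2i libraries and 34.9 to 62.8 CPM in vehicle libraries. Median log2 differences were -0.39 for the B and plasma cell list and -0.23 for the T and NK cell list, the latter below 0 although its sums ran higher. Of these single calls, that of Jchain was kept without CK2i 2 and CK2i 5, and those of Ccr9 and Gzmb were lost. No listed marker was at 0 in all libraries, and the part of these cell types in the values of the 30 genes was not tested.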

How the data were processed

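Total RNA of 10 HPC samples, 5 per group, was sequenced in paired 75-base reads after stranded library preparation, per the labels' protocols. Bowtie2, RSEM 1.2.31, DESeq2 and the build mm10 are named, per the submitters' processing notes. For the transcript annotation and strand setting, nothing is given in the sources used here. RSEM's expected counts, as deposited, are whole numbers, which gave no fractions to round, and the FPKM values are likewise the authors' own. RSEM divides reads that fit several genes between them, so values of near-identical copies are uncertain.

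Here, 37570 of 38887 identifiers matched GENCODE M21 (GRCm38), and 2 empty rows were left out. edgeR 4.0.16 in R 4.3.3 was run with TMM scaling, a filter on low counts (filterByExpr, minimum count 10) and a quasi-likelihood test of group over 14346 genes. P-values were Benjamini-Hochberg adjusted over all of them, with calls at an adjusted p under 0.05. CPM values are scaled by TMM. Errors are SDs of 5 libraries or SEs of the log2 difference. The script was tested on simulated data. Alternatives were DESeq2 1.42.0, limma 3.58.1 on log2(FPKM + 1) or log2(FPKM + 0.1), RLE size factors, no filter, a filter at 1 FPKM, 1 surrogate variable (sva 3.50.0), a replicate block and leaving out libraries.

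Genes shown by library were those past the test, the 3 most abundant, Ly6c2, Adgre1, Cd68, Mpeg1 and the Ms4a6 and C1q families. Fn1, Vcam1 and Cd36 were added after their values were seen. From other lists the largest rise and fall past the test were named, with Csf1r and Itgam. Genes named beyond these (Itgav, Apoe, Stab2, Gas6, Pros1 and Tyro3) were chosen after their values were seen. The members and all lists were chosen with earlier results of these data known. Proteins were not analysed here.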

Additional observations from a re-analysis of the deposited data

How the results depend on the processing

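Of all tested genes 1892 were called, and of the 30 genes 5 higher and 0 lower with a median log2 difference of 0.47. With 1 surrogate variable, which correlated with group at 0.74, 15 genes were called in all and 0 of the 30, the median was -0.19, and 20 of the 30 changed sign: C1qa -0.03, C1qc -0.15, Ccl6 -0.31, Cd163 -0.39, Fn1 -0.25, Lgals3 -0.28, Ly6c2 -0.26, Ly86 -0.29, Mertk -0.30, Mpeg1 -0.15, Mrc1 -0.078, Ms4a4c -0.32, Ms4a6b -0.28, Ms4a6c -0.27, Ms4a6d -0.049, Pld4 -0.32, S100a4 -0.51, S100a6 -0.45, Tgfbi -0.45 and Vcam1 -0.073. At an unadjusted p under 0.05, a threshold not counted over all genes, that fit had 1 of the 30 higher and 6 lower. The cause was not tested. Without CK2i 2 and CK2i 5, libraries known from earlier results to stand apart, 175 genes were called, 0 of the 30 were called, the median was 0.21, and Ccl6 (-0.075), Cd163 (-0.083), S100a4 (-0.13) and S100a6 (-0.12) changed sign. DESeq2 called 3124 genes (1689 higher and 1435 lower), with 10 of the 30 higher and 1 lower. limma called 1223 genes with a pseudocount of 0.1 and 1197 with 1, and 4 of the 30 higher and 0 lower each time. Without a filter on low counts 1370 genes and 4 of the 30 were called. RLE size factors and the FPKM filter, which left out Mertk, kept the count of 5 higher. Leaving out 1 library gave 446 to 3198 genes called, 0 to 13 of the 30 higher, 0 to 1 lower, and medians of 0.40 to 0.57.

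The groups share replicate numbers 1 to 5, but no label says that a number marks a shared animal, batch or day. The deviations of same-numbered libraries from their group means correlated at 0.23, 0.11, 0.07, 0.03 and -0.16, and 2 of 5 CK2i libraries matched their own number best. A replicate block gave 1139 genes called and 2 of the 30 higher, Cd68 and Adgre1, and 0 lower. With 5 libraries a group, a p above the threshold does not show that a gene did not differ. Genes at a few CPM, such as Mertk, rest on the fewest counts.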
